A study of Mus musculus with 11 samples.

Results

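The 10 genes described here encode enzymes of glycolysis and of its lactate branch. They are Hk1, Hk2, Gpi1, Pfkl, Pfkp, Aldoa, Tpi1, Pgk1, Eno1 and Ldha. They were taken from the tables by gene symbol, and all 10 were found among the 15453 genes measured in each mouse. No member was called different between genotypes. The spread of 9 of the 10 was larger among the mutant mice than among the wildtype mice, as it was for 72.6% of the 9906 genes whose mean reached 50 in at least one genotype.

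The values come from serial analysis of gene expression (SAGE) of epididymal white adipose tissue (eWAT) of 11 male mice. In SAGE each transcript is counted by 1 short tag, taken next to the NlaIII site (CATG) nearest its 3′ end, so tag counts of different genes can be set side by side without dividing by transcript length. The groups were 6 wildtype (WT) mice and 5 mice that inherited an inactivated allele of Mest from the father (pKO). Mest, mesoderm specific transcript, is imprinted, with the maternal copy largely silent, so that inheriting the mutation from the father removes most of the transcript.

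All 11 mice were C57BL/6 in the labels, and C57BL/6J in the methods of the study, 16 weeks old, and had been given a high fat diet from 8 weeks of age. The pKO allele lacks an exon of Mest in every tissue and not in adipocytes alone, and its maternal copy is intact. The study picked the mice from a larger feeding cohort. It reported a higher ratio of fat to lean mass in the sequenced WT mice than in the sequenced pKO mice. Genotype and fatness therefore cannot be told apart in these data. Libraries held 9659740 to 14825727 tags in WT mice and 11320342 to 14626803 tags in pKO mice. Values below are normalized tags, in which each library's tag counts were scaled by its own size factor.

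Glycolysis splits glucose into pyruvate, with a small yield of ATP and NADH. In adipocytes it also supplies the glycerol backbone on which fatty acids are esterified, and lactate dehydrogenase turns surplus pyruvate into lactate, which fat tissue releases. Hexokinase, phosphofructokinase and pyruvate kinase catalyse the essentially irreversible and regulated steps, while the enzymes between them work closer to equilibrium.

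The tags below are those expected from the RefSeq-linked protein-coding transcripts of the GENCODE M21 annotation (GRCm38). They are predictions and were not taken from the authors' mapping. Shown are the 4 most abundant members and the hexokinase with a pair of alternative ends. A pair of enzymes whose tag is not unique follows. Capitals mark the NlaIII site.
Aldoa: CATGcctactaaccagagctgaactaa
Ldha: CATGccaaataaaaccttgaacagtga
Tpi1: CATGtaagggaaataaacacctgggcc
Pgk1: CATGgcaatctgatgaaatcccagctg
Hk1, longer annotated 3′ end: CATGtgagcccatcccaaatgaaatga
Hk1, other annotated 3′ end: CATGgcactgctgttcccttccccctc
Eno1: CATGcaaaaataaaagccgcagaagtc
Gapdh: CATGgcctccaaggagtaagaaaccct

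The Aldoa tag lies at chr7:126795404-126795430 on the minus strand and overlaps the stop codon. The Ldha tag (chr7:46855601-46855627, plus strand), the Tpi1 tag (chr6:124810718-124810744, minus strand) and the Pgk1 tag (chrX:106203617-106203643, plus strand) lie in the 3′ UTR, in the last exon. So do both Hk1 tags, at chr10:62268882-62268908 and chr10:62269393-62269419 on the minus strand. The expected tags of 9 of the 10 members occur in no annotated transcript of another gene.

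Eno1 was the exception. Its tag, at chr4:150248845-150248871 on the plus strand in the 3′ UTR, is also the tag of Eno1b, and a count of this sequence cannot be assigned to one of the genes. The symbol Eno1b was not among the 15453 genes measured. Of 12243 genes with an expected tag, 2.88% shared it with another gene, and 63.5% of those that shared it reached a mean of 50 in one genotype, against 69.9% of those that did not. Gapdh, the enzyme between Tpi1 and Pgk1, has a tag that is also the 3′-most tag of 5 other genes. Its symbol was not among the 15453 either.

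Mest itself had 20756 at the lowest, 26018 at the median and 27897 at the highest in WT mice. The pKO mice had 1479, 793, 1978, 2275 and 1792 in replicates 1 to 5, so the genotypes did not overlap. The difference was -3.99 on the log2 scale, pKO minus WT (limma, adjusted p = 1.18e-06). The Mest tag is at the 3′ end, outside the deleted exon, so it reports the amount of transcript and does not check the deletion itself. The adipocyte markers Fabp4 and Adipoq, a fatty acid carrier and the hormone adiponectin, were high in every mouse, with 471444 to 938405 for Fabp4 and 53365 to 88529 for Adipoq.

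In WT mice the members spanned a wide range of levels. Aldoa had 24167 ± 8511 normalized tags (SD, n = 6), Ldha 23853 ± 4301 and Tpi1 19019 ± 1505, and they ranked 41, 52 and 73 of 15453 genes by their mean over all mice. Next came Pgk1 with 5354 ± 762 and Gpi1 with 4152 ± 614. Among these neighbours, Aldoa and Ldha, Ldha and Tpi1, and Pgk1 and Gpi1 overlapped across WT mice, whereas Tpi1 and Pgk1 did not.

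The members at the regulated steps were lower than Gpi1 and the members above it. This order was read within the listed members only. The mutase Pgam1, outside the list and between the regulated steps, had 1808 in WT mice, and its WT range overlapped that of Pfkp. Pfkp had 1588 ± 115 (SD, n = 6), Pfkl 930 ± 104, Hk2 468 ± 85.7 and Hk1 158 ± 22.3, and the WT ranges of these neighbours did not overlap. Eno1 came last with 16.6 ± 5.35, from 10 to 27 tags per library over all 11 mice. Whether its shared tag is related to this low level was not tested, and the level of enolase 1 is therefore uncertain.

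**Figure D1:**
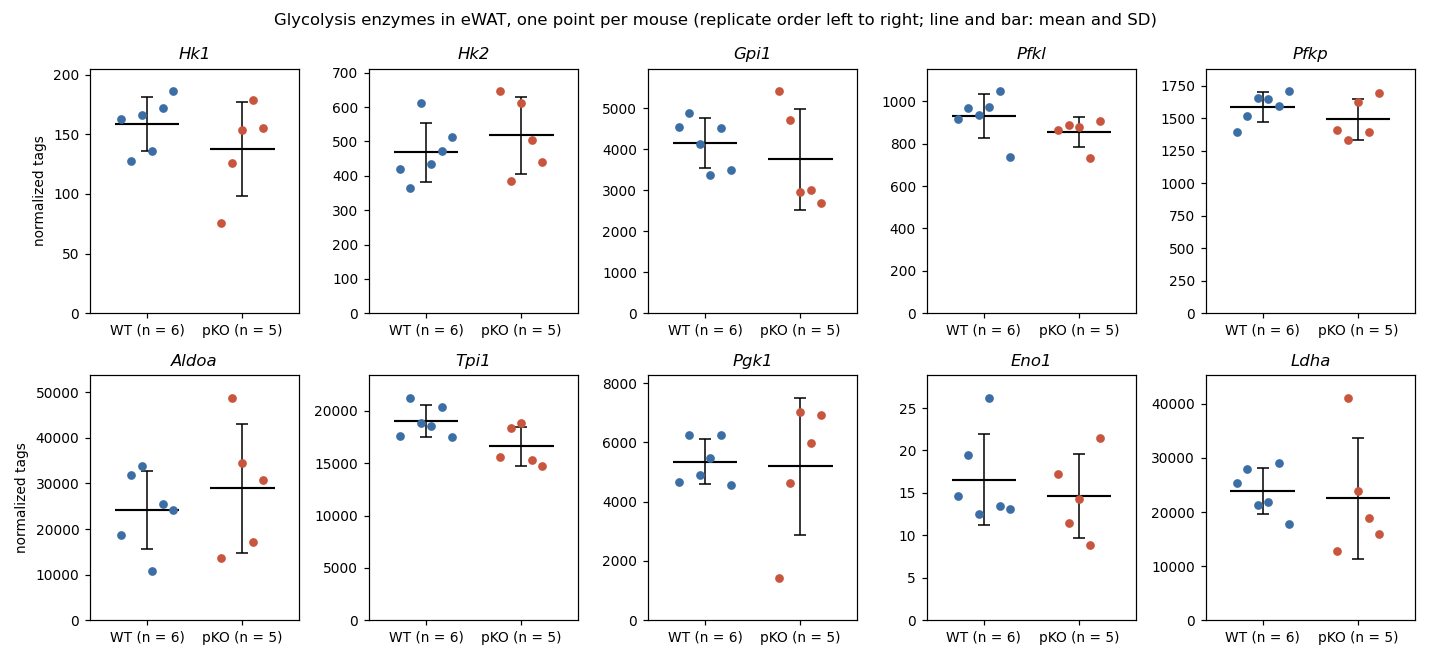
Normalized tags (y axis, linear and starting at 0, with its own scale for each gene) of the 10 glycolysis enzymes in 6 WT (blue) and 5 pKO (red) mice, with 1 point per mouse in replicate order and the mean and SD in black. The genotypes overlap in all 10 panels, and pKO replicate 1 lies far below the other mice for Pgk1, at 1434 against 4577 or more.

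Across the 10 members, the question was whether the transcripts of glycolysis in eWAT differed between the genotypes. With limma on log2(value + 1), fitted on all 15453 genes, 0 of the 10 members passed an adjusted p of 0.1, and 0 passed an unadjusted p of 0.05. A gene was called when its mean also reached 50 in at least one genotype, which 9 of the 10 members and 9906 genes in all did. Of those 9906 genes, 0.0505% passed the adjusted threshold, and 10.6% the unadjusted one. The edgeR and DESeq2 tests on tag counts also called 0 members, with the lowest unadjusted p at 0.0981 and 0.0667, both for Tpi1. Exact permutation tests of single members (two-sided) gave p from 0.0541 for Tpi1 to 0.820 for Pgk1. DESeq2 called 1.22% of the 9906 genes at an adjusted p of 0.1.

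The WT and pKO ranges overlapped for all 10 members, where 1.43% of the 9906 genes had ranges apart. The log2 difference, pKO minus WT, was below 0 for 8 members and above 0 for Hk2 and Aldoa. Over the 9 members whose mean reached 50, 7 were below 0 and the median was -0.18, beside a median of 0.01 over the 9906 genes, of which 48.7% were below 0. The median over all 10 members was -0.18 by limma, -0.109 by edgeR and -0.105 by DESeq2. It was -0.06 by limma without pKO replicate 1. When pKO replicates 1 and 2 were left out, a choice made after seeing the data, 6 of the 10 were below 0 and 1 member, Gpi1, passed the adjusted threshold, as did 5.48% of the 9946 genes whose mean then reached 50 (3.13% as lower). At an unadjusted p, 2 members, Gpi1 and Pgk1, and 22.5% of those genes passed.

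**Figure D2:**
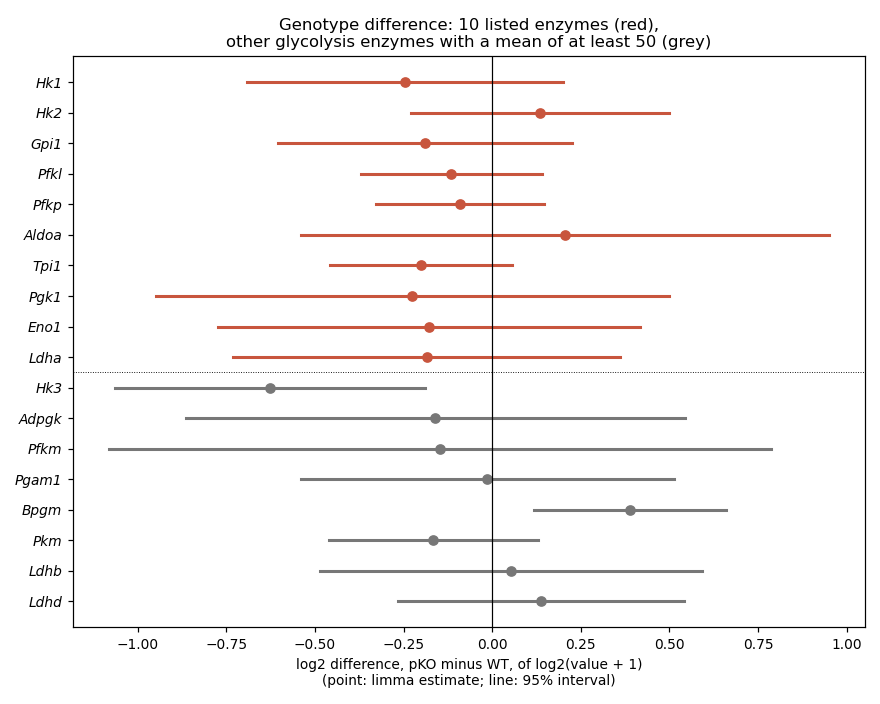
Log2 difference, pKO minus WT, on the log2(value + 1) scale (x axis) with its 95% interval from limma for the 10 members (red) and for the 8 other glycolysis enzymes whose mean reached 50 (grey). All 10 red intervals cross 0, the narrowest being that of Pfkp, from -0.33 to 0.14, and the widest that of Aldoa, from -0.54 to 0.95, and the grey intervals of Hk3 and Bpgm lie apart from 0.

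The hexokinases trap glucose in the cell by phosphorylation. Hk1, the broadly expressed form, had 128 at the lowest, 165 at the median and 186 at the highest in WT mice, and 75.5, 126, 154, 178 and 156 in pKO replicates 1 to 5. Replicate 1 of the pKO mice was below every other mouse and the other 4 lay inside or just under the WT range. The log2 difference was -0.25 with a 95% interval from -0.69 to 0.20 (limma, adjusted p = 0.740), and -0.05 without pKO replicate 1.

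Hk2, the insulin-responsive hexokinase of fat and muscle, had 364, 452 and 610 as the lowest, median and highest WT values, and 647, 385, 613, 503 and 440 in the pKO mice. Here pKO replicate 1 was the highest of all 11 mice, and replicate 3 was also just above the WT range. The difference was 0.14 on the log2 scale with an interval from -0.23 to 0.50 (limma, adjusted p = 0.839).

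The ratio of Hk2 to Hk1, which does not depend on how a library is scaled, was 2.57 to 3.67 in WT mice. It was 8.57 in pKO replicate 1 and 2.82 to 3.99 in the other pKO mice. The log2 ratio differed by 0.38 between genotypes, within the spread (exact permutation test, two-sided, p = 0.195, adjusted over 4 ratios p = 0.779). Without pKO replicate 1 the difference was 0.09.

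Gpi1, glucose phosphate isomerase, had 3359 at the lowest, 4320 at the median and 4881 at the highest in WT mice, and 5422, 4716, 2945, 3012 and 2682 in pKO replicates 1 to 5. The pKO mice lay on both sides of the WT range, with replicate 1 above it, replicate 2 inside it and replicates 3, 4 and 5 below it. The log2 difference over all mice was -0.19 with an interval from -0.60 to 0.22 (limma, adjusted p = 0.788). Without pKO replicates 1 and 2, a split chosen after the values were seen, it was -0.52 (limma, adjusted p = 0.0934). The mice left out had the highest Gpi1 values of the pKO group, so the value is a description of the 3 pKO mice that remained.

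Phosphofructokinase commits sugar to glycolysis. Its liver-type subunit Pfkl had 738, 950 and 1050 as the lowest, median and highest WT values, and 867, 888, 881, 732 and 909 in the pKO mice. The lowest mouse was pKO replicate 4, followed by WT replicate 6, and the other 9 mice lay between 867 and 1050. The genotypes differed by -0.12 on the log2 scale with an interval from -0.37 to 0.14 (limma, adjusted p = 0.791).

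The platelet-type subunit Pfkp had 1395 at the lowest, 1620 at the median and 1713 at the highest in WT mice, and 1412, 1331, 1625, 1398 and 1698 in pKO mice. It was the steadiest member, with a highest to lowest ratio of 1.29 over 11 mice, where the median gene of the 9906 had 2.06. Between genotypes it differed by -0.09 on the log2 scale with an interval from -0.33 to 0.14 (limma, adjusted p = 0.828), so a change to under 79.6% or over 111% of the WT level lay outside the interval.

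Pfkp exceeded Pfkl in every mouse, with a ratio of 1.52 to 2.32 in WT and 1.5 to 1.91 in pKO mice (exact permutation test on the log2 ratio, two-sided, p = 0.859, adjusted p = 0.968). The muscle-type subunit Pfkm was the smallest part, at 0.042 to 0.165 of Pfkl in WT and 0.0462 to 0.220 in pKO mice (exact permutation test, p = 0.968). Neither log2 ratio had a stable direction: each turned with the mouse left out, from -0.01 to 0.11 for Pfkp over Pfkl and from -0.34 to 0.32 for Pfkm over Pfkl.

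Aldoa, aldolase A, cleaves the phosphorylated sugar into triose phosphates. Its WT values were 10841 at the lowest, 24803 at the median and 33855 at the highest, and the pKO mice had 13748, 48823, 34398, 17105 and 30755. The highest values were those of pKO replicates 2 and 3, and the lowest those of WT replicate 4 and pKO replicate 1, so that mice of both genotypes were spread over a 4.50-fold range. The difference was 0.20 on the log2 scale with an interval from -0.54 to 0.95 (limma, adjusted p = 0.889). It was -0.02 without pKO replicate 2 and -0.01 without WT replicate 4.

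Tpi1, triose phosphate isomerase, links the triose phosphate used for glycerol synthesis to the one that continues down glycolysis. It had 17487 at the lowest, 18700 at the median and 21255 at the highest in WT mice, and 15614, 18365, 18885, 15336 and 14778 in pKO mice. Replicates 1, 4 and 5 of the pKO mice were below every WT mouse, and replicates 2 and 3 lay inside the WT range. The pKO mean was 87.3% of the WT mean. The log2 difference was -0.20 with an interval from -0.46 to 0.06 (limma, unadjusted p = 0.117, adjusted p = 0.617), and the exact permutation test gave p = 0.0541.

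Tpi1 had the lowest p of the 10 members. With each library scaled by its total, which moves the median of all genes to -0.04, its unadjusted limma p was 0.0428 and its adjusted p 0.512. Its direction was the same with each mouse left out in turn, from -0.25 to -0.16. The direction was also the same for every other member except Aldoa and Pgk1.

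Pgk1, phosphoglycerate kinase, makes the first ATP of the pathway. Its WT values were 4577 at the lowest, 5191 at the median and 6260 at the highest, and the pKO mice had 1434, 4625, 7014, 5973 and 6939. Replicate 1 had less than every other mouse by a wide margin, and replicates 3 and 5 were above every WT mouse. Pgk1 differed by -0.23 on the log2 scale with an interval from -0.95 to 0.50 (limma, adjusted p = 0.869). It was 0.19 without pKO replicate 1, and 0.32 without pKO replicates 1 and 2 (limma, unadjusted p = 0.040, adjusted p = 0.251). That last split was chosen after the values were seen. The mice left out had the lowest Pgk1 values of the pKO group, so the value only describes the pKO mice that remained.

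Eno1, enolase, had 12.5, 14.1 and 26.2 as the lowest, median and highest WT values and 17.2, 11.5, 14.2, 8.83 and 21.5 in pKO mice. Its log2 difference was -0.18 with an interval from -0.77 to 0.42 (limma, adjusted p = 0.874), and it did not reach the mean of 50 needed for a call.

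Ldha encodes the lactate dehydrogenase subunit that favours lactate formation. It had 17815 at the lowest, 23563 at the median and 29042 at the highest in WT mice, and 12818, 41146, 23891, 18817 and 16024 in pKO mice. Replicate 2 of the pKO mice was above all WT mice, and replicates 1 and 5 were below all of them. Ldha differed by -0.18 on the log2 scale with an interval from -0.73 to 0.36 (limma, adjusted p = 0.859). Without pKO replicate 2 it was -0.43 with an unadjusted limma p of 0.0446 and an adjusted p of 0.378.

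Ldhb, the other main lactate dehydrogenase subunit, was at 0.0101 to 0.0214 of the Ldha level in WT mice. In pKO mice the ratio ran from 0.00423 in replicate 2 to 0.0405 in replicate 1, on both sides of the WT range. The log2 ratio differed by 0.24 (exact permutation test, two-sided, p = 0.673, adjusted p = 0.968). It was -0.09 without pKO replicate 1 and 0.72 without pKO replicate 2.

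**Figure D3:**
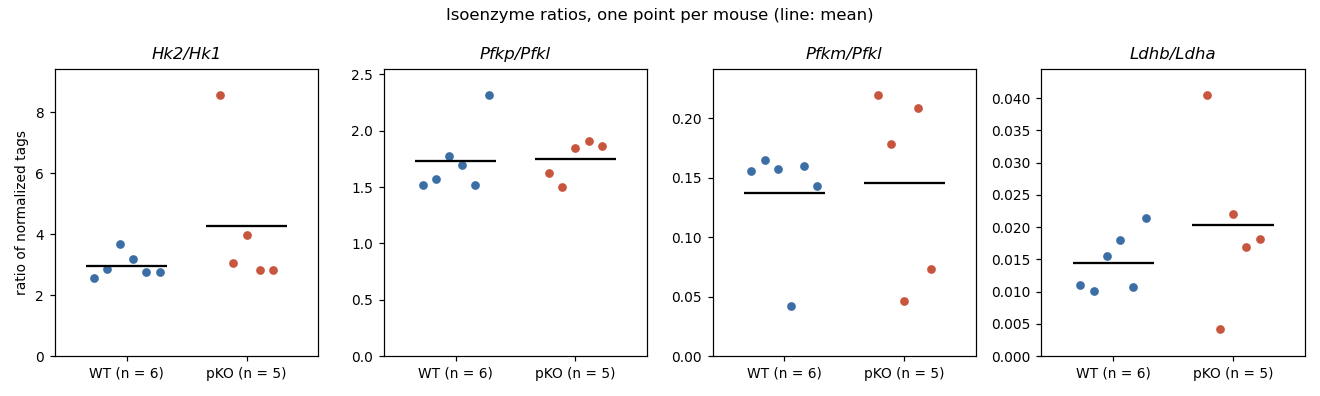
Ratio of normalized tags (y axis, linear and starting at 0) of 4 isoenzyme pairs in each WT (blue, n = 6) and pKO (red, n = 5) mouse, with the mean as a line. The genotypes overlap in all 4 panels, and pKO replicate 1 has the highest Hk2 over Hk1 ratio, at 8.57, and the highest Ldhb over Ldha ratio, at 0.0405.

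**Figure D4:**
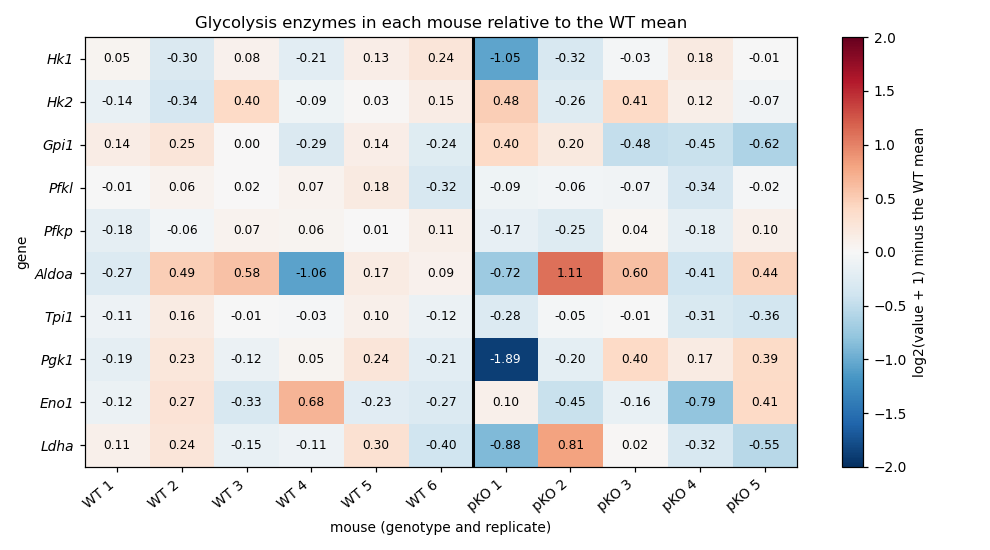
Each cell gives log2(value + 1) of a member (row) in a mouse (column) minus the mean of the 6 WT mice, in colour and as a number, with a black line between WT and pKO mice. The strongest colours are in pKO replicate 1, at -1.89 for Pgk1 and -1.05 for Hk1, in WT replicate 4, at -1.06 for Aldoa, and in pKO replicate 2, at 1.11 for Aldoa.

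Within the pKO group the members did not move as a block. Replicate 1 had the lowest value of all 11 mice for Hk1, Pgk1 and Ldha and the highest for Hk2 and Gpi1. Replicate 2 had the highest for Aldoa and Ldha and the lowest for Pfkp. Over the 9906 genes, pKO replicate 1 was the lowest mouse in 18.3% and the highest in 21.7%, so extreme values in this mouse were frequent outside glycolysis as well.

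The 9 members whose mean reached 50 together took 0.532% to 0.755% of the tags in WT mice. In pKO mice their share ran from 0.414% in replicate 1 to 0.928% in replicate 2, most of it from Aldoa, Ldha and Tpi1. Muscle also uses these enzymes heavily. The 7 measured muscle markers were of skeletal and smooth muscle. Replicate 2 of the pKO mice was the highest of all mice for 2 skeletal ones, Acta1 (219 against 16.4 to 66.1 in the other mice) and Myl1 (3283). Actn3 and Ckm (muscle creatine kinase), also skeletal, did not follow, with 33.2 and 5.73 in this mouse. Over all mice Actn3 ran from 28.0 to 66.2. Replicate 2 was the lowest for 1 smooth muscle marker, Cnn1 (1.15). The sum over the 7 was 3971 to 6002 in WT and 4059 to 6695 in pKO mice, and pKO replicate 2, at 6446, was below pKO replicates 1 and 5. The smooth muscle gene Myh11 weighs heavily in that order, with 3836 and 3731 in pKO replicates 1 and 5 and 2020 in replicate 2. The sum therefore does not describe skeletal muscle alone. Ckm was at 8.31 or less in every mouse. The part of muscle RNA in the Aldoa and Ldha values was not tested. In bulk tissue, fewer cells of a type and less RNA per cell cannot be told apart.

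The SD of log2(value + 1) was larger in pKO than in WT mice for 9 of the 10 members, Pfkl being the exception, and for 72.6% of the 9906 genes. The coefficient of variation of Pgk1 was 14.2% in WT and 44.5% in pKO mice, that of Ldha 18.03% and 49.5%, and that of Gpi1 14.8% and 32.8%. Aldoa varied in both genotypes, with 35.2% and 48.8%. The medians over the 9906 genes were 15.5% and 23.2%.

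Set among those 9906 genes, the variation of Ldha in pKO mice exceeded that of 93.1% of genes, that of Aldoa 92.6% and that of Pgk1 89.6%. Pgk1 was unremarkable in WT mice, where 43.7% of genes varied less, whereas Aldoa was at 91.7% there too. The steady members were Pfkl, which varied more than 3.97% of genes in pKO mice, Pfkp at 8.78% and Tpi1 at 10.3%. These are descriptions of the mice at hand, and the difference in spread between genotypes was not tested.

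Of the other glycolysis enzymes, 16 of 21 listed were measured and 8 reached a mean of 50. At an unadjusted limma p of 0.05, 1 of these 8 was lower (Hk3) and 1 was higher (Bpgm) in pKO mice, and 0 passed the adjusted threshold. Over the 9906 genes, 5.77% were lower and 4.85% higher at that unadjusted p. Pgam1, the mutase after Pgk1, had 1808 ± 442 in the 6 WT and 1844 ± 621 in the 5 pKO mice (mean ± SD), and like Pgk1 it was lowest in pKO replicate 1, at 957. The pKO means of pyruvate kinase (Pkm), Adpgk and Ldhb were at 90.6%, 91.9% and 111% of the WT mean.

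Hk3, the hexokinase of myeloid cells, had 58.9 at the lowest, 97.5 at the median and 123 at the highest in WT mice, and 51.5, 52.7, 51.9, 68.8 and 78.8 in pKO mice. Replicates 1, 2 and 3 of the pKO mice were below every WT mouse. Hk3 differed by -0.63 on the log2 scale (limma, unadjusted p = 0.0083, adjusted p = 0.370). Of the 9 macrophage markers whose mean reached 50, Itgam, Itgax, Cd14 and Trem2 were lower at the same unadjusted p, and 0 were higher. Among all 9906 genes, 5.77% were lower and 4.85% higher at that p. The 4 lower markers had an adjusted limma p from 0.37 to 0.47 and were at 52.8% to 73.4% of the WT mean. The others did not pass: Csf1r, Mrc1 and Lyz2 were at 85.7%, 85.7% and 85.0%, and Emr1 and Cd163 at 101% and 113%. The sum over the 10 measured macrophage markers was 4311 to 6622 in WT and 3865 to 5258 in pKO mice, and their part in the Hk3 values was not tested.

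Bpgm, bisphosphoglycerate mutase, which opens a side path of glycolysis known from red blood cells, had 174 ± 16.8 in the 6 WT and 229 ± 22.8 in the 5 pKO mice (mean ± SD), with a log2 difference of 0.39 (limma, adjusted p = 0.370). Of the 3 red blood cell markers whose mean reached 50, 2 were higher at an unadjusted limma p of 0.05, beside 4.85% of all 9906 genes. These were the haemoglobin genes Hba-a1 and Hba-a2, at 165% and 169% of the WT mean, with overlapping ranges. Their adjusted limma p was 0.50 and 0.52, and exact permutation tests gave p = 0.106 and 0.0909. The sum over the 4 measured red blood cell markers was 378 to 961 in WT and 652 to 1656 in pKO mice, and their part in the Bpgm values was not tested.

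Upstream of the hexokinases, 7 of 8 measured glucose and lactate carriers reached a mean of 50, and 1 of them, Slc2a4, was higher in pKO mice at an unadjusted limma p of 0.05, beside 4.85% of all 9906 genes. Slc2a4 encodes GLUT4, the insulin-responsive glucose transporter, and had 519 at the lowest, 604 at the median and 714 at the highest in WT mice and 1225, 870, 809, 748 and 717 in pKO mice. Every pKO mouse was above every WT mouse, the nearest by a small margin, where 1.43% of the 9906 genes had ranges apart, and the log2 difference was 0.49 (limma, adjusted p = 0.370). GLUT1 (Slc2a1), the lactate carriers Slc16a1 and Slc16a7 and their partner Bsg did not pass, at 97.7%, 112%, 142% and 110% of the WT mean.

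Of the regulators, 7 of 8 measured reached a mean of 50. Of these 7, 0 were called at an unadjusted or adjusted limma p, beside 10.6% and 0.0505% of the 9906 genes. Pfkfb3, which makes the activator of phosphofructokinase, was the most abundant, with 6078 ± 657 in the 6 WT and 5949 ± 1153 in the 5 pKO mice (mean ± SD). Pfkfb2, Pfkfb4 and Txnip, a brake on glucose uptake, were at 91.6%, 83.3% and 133% of the WT mean.

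Of the branches from glycolysis, 21 of 24 genes reached a mean of 50, of which 1 was lower (Gfpt1, the entry to the hexosamine pathway, 74.2% of the WT mean) and 2 were higher (Gpd2 and Pck1) in pKO mice at an unadjusted limma p of 0.05, beside 10.6% of all 9906 genes in either direction. Gpd2, the mitochondrial glycerol phosphate dehydrogenase, had 199 at the lowest, 255 at the median and 286 at the highest in WT mice, and 341, 351, 462, 432 and 414 in pKO mice, with no overlap. Gpd2 differed by 0.67 on the log2 scale (limma, adjusted p = 0.194), and DESeq2 gave an adjusted p of 0.0029. Pck1, which makes the glycerol backbone from sources other than glucose, had 14044 ± 3132 (SD, n = 6) and 27356 ± 12706 (SD, n = 5), with pKO replicate 2 below every WT mouse and the other pKO mice above (limma, adjusted p = 0.479). Gpd1, which makes glycerol phosphate from the product of aldolase, Taldo1, Rpe and Gyg did not pass, at 80.5%, 120%, 117% and 106%.

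Of the genes for pyruvate entry into mitochondria and its use there, 13 of 14 measured reached a mean of 50. Among these, 2 were higher in pKO mice at an unadjusted limma p of 0.05, beside 4.85% of all 9906 genes. Both encode the first component of pyruvate dehydrogenase, Pdha1 at 135% (limma, adjusted p = 0.431) and Pdhb at 159% of the WT mean (limma, adjusted p = 0.370), with overlapping ranges. Pdhx, the kinase Pdk4, Pcx and the pyruvate carrier Mpc1 did not pass, at 118%, 105%, 118% and 107%. Of 15 hypoxia-responsive genes whose mean reached 50, 0 were called at an unadjusted or adjusted limma p, beside 10.6% and 0.0505% of 9906 genes. Hif1a, Epas1, Bnip3 and P4ha2 were at 97.8%, 154%, 106% and 95.6% of the WT mean.

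**Figure D5:**
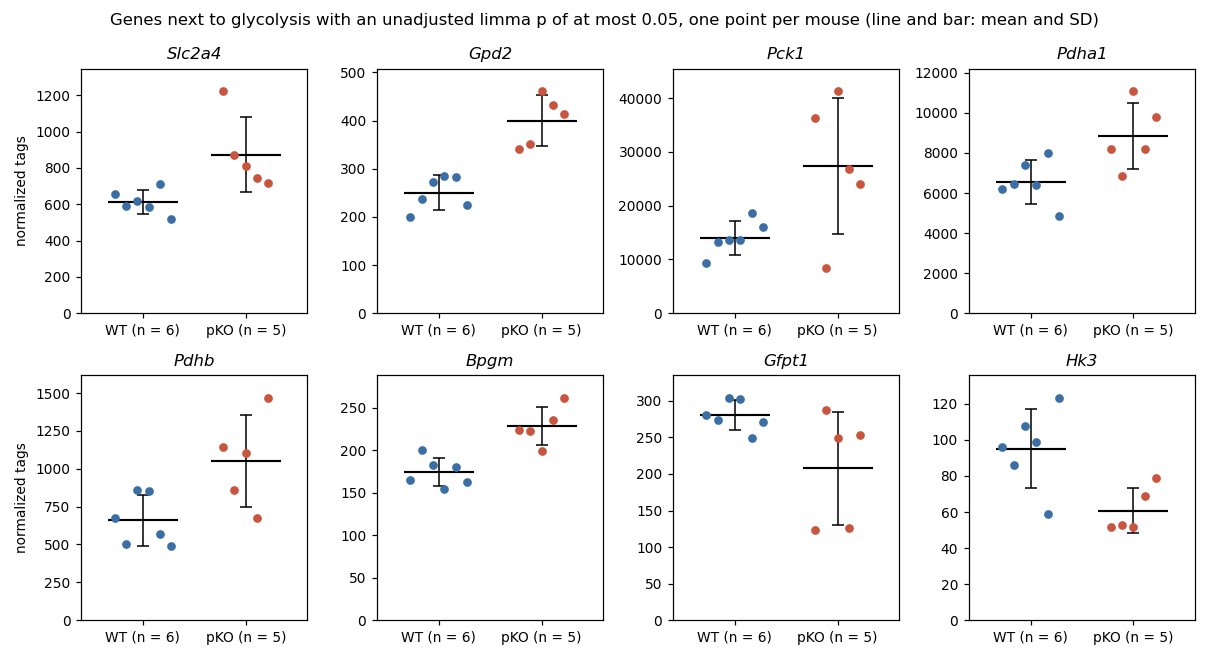
Normalized tags (y axis, linear and starting at 0, with its own scale for each gene) of the 8 genes of the surrounding pathways whose mean reached 50 and an unadjusted limma p of at most 0.05, with 1 point per mouse, WT in blue, pKO in red and the mean and SD in black. Slc2a4 and Gpd2 have every pKO mouse above every WT mouse, and Pck1 has pKO replicate 2, at 8404, under all WT mice.

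Among markers of other cell types, and apart from the macrophage and haemoglobin genes above, Kdr (endothelium), Dcn (fibroblasts), Msln and Krt19 (mesothelium) and S100a9 (neutrophils, mean under 50) were higher and Cnn1 (smooth muscle, mean under 50) was lower in pKO mice at an unadjusted limma p of 0.05. Other markers of the same lists did not follow: Pecam1, Tek and Emcn (endothelium) were at 77.0%, 86.7% and 86.4% of the WT mean, 4 of 6 fibroblast markers had a log2 difference below 0, and S100a8 (neutrophils) was at 54.6%, whereas 0 of 6 mesothelial markers were below 0. The adipocyte list had 0 of 8 genes called at that p, beside 10.6% of the 9906 genes. Its sum was 679965 to 1090830 in WT and 730066 to 1106640 in pKO mice.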

How the data were processed

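Polyadenylated RNA of eWAT from 6 WT and 5 pKO mice was made into 1 SOLiD SAGE library per mouse. Tags were mapped by the authors with their own modification of the SOLiD SAGE software, and the build named in the submitters' notes is mm10, with edgeR 3.2.3 among the tools; the annotation is not given in the sources used here. The deposited values are a signal: tag counts that the authors scaled by a size factor for each library. In each library 100% of values were whole multiples of the value of 1 tag (0.836 to 1.19) within a tolerance of 0.01, which gave the tag counts back.

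Differences, pKO minus WT, were tested on log2(value + 1) with limma 3.58.1 (R 4.3.3, mean-variance trend, genotype as the sole term) over all 15453 genes with Benjamini-Hochberg adjustment, and isoenzyme ratios with exact permutation tests over 462 splits (smallest p 0.0022, two-sided). The pseudocount of 1 understates changes of genes with few tags. For a call, the adjusted p had to be 0.1 or less and the mean had to reach 50 in at least one genotype. Counts were also tested with edgeR 4.0.16 and DESeq2 1.42.0, and other scalings, pseudocounts, filters, a replicate block and leaving out each mouse were tried. The scripts were tested on simulated counts.

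The members and the lists were chosen with earlier results of these data known. Beside the members, genes were named that passed an unadjusted p of 0.05 in a pathway list (mean of 50 or more) or marker list, with up to 4 of the most abundant others of each pathway list. Fabp4, Adipoq, Acta1, Myl1, Actn3, Ckm, Myh11, Csf1r, Mrc1, Lyz2, Emr1, Cd163, Pecam1, Tek, Emcn and S100a8 lie outside this rule and were named after their values were seen. Pairs of libraries differed by far more than sampling noise (lowest chi-square per degree of freedom 17.7), so 11 mice were counted. No batch is given in the labels. Tags and coordinates are from GENCODE M21 (GRCm38, the assembly of mm10), not from the authors' mapping. Counts come from PCR products without molecular identifiers.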

Additional observations from a re-analysis of the deposited data

Results flagged for a closer look

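In 7 of 118 groups of mice, 1 mouse stood apart from the rest of its group by the gap to its nearest neighbour, where chance alone gives about 5.9. Among the members this was Pfkl in pKO replicate 4, at 732 normalized tags against 867 to 909 in the other pKO mice. The log2 ratio of Pfkp to Pfkl was 1.21 in WT replicate 6 against 0.60 to 0.83 in the other WT mice. The log2 ratio of Pfkm to Pfkl was -4.54 in WT replicate 4 against -2.79 to -2.59. Slc2a1 had 211 in WT replicate 6 against 134 to 163. Slc16a1 had 520 in pKO replicate 2 against 996 to 1156. Epas1 had 3580 in pKO replicate 4 against 8066 to 9453. Msln had 151 in WT replicate 3 against 98.1 to 118.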

How the results depend on the processing

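The count of members called at an adjusted p was 0 under every setting other than the one without pKO replicates 1 and 2, and at an unadjusted p it was 1 with total-count scaling (Tpi1) and 0 or 1 with each mouse left out in turn (Ldha without pKO replicate 2). Over all genes, 4 were lower and 1 was higher in pKO mice by limma, with 63 and 58 by DESeq2 and 9 and 2 when at least 10 tags were required in every library. With each mouse left out the counts ran from 2 to 65 lower and from 1 to 26 higher, and from 784 to 1483 at an unadjusted p, all 3 highest without pKO replicate 2. With each mouse left out, log2 differences ran from -0.35 to -0.045 for Hk1, from -0.021 to 0.44 for Aldoa (-0.0077 without WT replicate 4 and -0.021 without pKO replicate 2), from -0.38 to 0.19 for Pgk1 (above 0 without pKO replicate 1), from -0.011 to 0.11 for Pfkp over Pfkl, from -0.34 to 0.32 for Pfkm over Pfkl, and from -0.089 to 0.72 for Ldhb over Ldha. Without pKO replicates 1 and 2, chosen after seeing the data, 311 genes were lower, 234 higher and 2238 passed the unadjusted p, with 1 member adjusted (Gpi1, -0.52) and 2 unadjusted (Gpi1 and Pgk1), and Hk1 (0.045) and Pgk1 (0.32) lay above 0 while Pfkp over Pfkl was 0.13 and Pfkm over Pfkl -0.49. The causes were not tested.

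A replicate block, in which WT replicate 6 has no partner, gave 1 lower and 0 higher genes, and the Pfkm over Pfkl difference was 0.0068. Mice with the same number did not deviate together (mean correlation -0.024, from -0.0918 to 0.139, against 0.0046 for different numbers). Of the 5 WT mice with a partner, 1 correlated best with its own number, as did 0 of 5 pKO mice. The block was therefore not read further. For limits, the median 95% interval of a gene with a mean of at least 50 reached 0.39 on the log2 scale to each side, and those of 6 of the 10 members (Aldoa, Pgk1, Eno1, Ldha, Hk1 and Gpi1) were wider.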
